A study of Mus musculus with 9 samples.

Results

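Transcripts of 10 genes that set the activity of the G1 cyclin-dependent kinases were measured in sorted nephron progenitors with and without the mitochondrial complex III subunit QPC. The genes were taken by symbol out of the 26858 genes in the table. They are the CIP/KIP inhibitors *Cdkn1b* and *Cdkn1c*, the INK4 inhibitors *Cdkn2a*, *Cdkn2b*, *Cdkn2c* and *Cdkn2d*, the D-type cyclins *Ccnd2* and *Ccnd3*, and the kinases *Cdk4* and *Cdk6*. All 10 were found. *Ccnd1* and *Cdkn1a*, which complete the D cyclin and CIP/KIP families, are given beside them.

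D-type cyclins bind CDK4 and CDK6, and the active complexes phosphorylate RB proteins and so release E2F factors, which switch on genes of DNA replication. INK4 proteins bind CDK4 and CDK6 alone and keep D cyclins off, whereas CIP/KIP proteins bind complete cyclin-kinase complexes, those of CDK2 in particular. In the developing kidney *Cdkn1c*, an imprinted gene expressed from the maternal allele, is known for its high level in podocytes leaving the cell cycle, and *Ccnd1* for its expression in early nephron structures.

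Both groups carried the *Six2* transgene that makes a fusion of eGFP and Cre recombinase, and cells were sorted for eGFP from mouse kidneys at E18.5 (embryonic day). Controls were *Six2-Qpc*+/- heterozygotes (4 libraries, replicates 71, 72, 73 and 76) and mutants were *Six2-Qpc*-/- (5 libraries, replicates 74, 75, 77, 78 and 79). The controls therefore also express Cre and lack 1 functional copy of *Qpc* (gene symbol *Uqcrq*) in this lineage, so the comparison is of loss of both copies with loss of 1. The transgene follows *Six2*, so deletion and sorting share the same driver. The paper does not fully exclude that differentiating heterozygous cells with low eGFP were sorted as well. It also reports a smaller fraction of eGFP-positive cells in mutant kidneys. The effect of either on the values below was not tested. The labels do not say whether each library came from a separate animal, and p-values measure the spread between these libraries, which may be partly technical. Library totals lay between 22571729 and 23691130 counts in control and between 21040536 and 23986458 in mutant samples.

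The targeted gene was examined first. *Uqcrq* stood at 107, 76.8, 91.1 and 101 CPM (counts per 1000000 after TMM scaling of the library) in control replicates 71, 72, 73 and 76. It stood at 16.5, 28.2, 22.6, 20.3 and 19.0 CPM in mutant replicates 74, 75, 77, 78 and 79. All 5 mutant libraries lay below all 4 controls, as the labels require, with a log2 fold change of −2.14 (SE of the log2 value 0.16, adjusted p = 2.1e-05 from edgeR's quasi-likelihood test). The progenitor label was checked with 8 markers, which summed to 2193 ± 219 CPM (SD, n = 4) in controls and 2282 ± 199 CPM (SD, n = 5) in mutants. *Six2*, the most abundant of them by the mean of all 9 libraries, had 571 ± 53.4 and 704 ± 102 CPM. *Crym* equalled it in controls, with 571 ± 104 and 427 ± 63.9 CPM, and had a log2 fold change of −0.42, and that of *Pax2* was −0.55; both were named after their values were seen. Of the 8, 0 passed the threshold in edgeR (3 at an unadjusted p under 0.05).

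Markers of other cells differed between the libraries, and their part in the results on cell cycle genes was not tested. The 8 stromal markers summed to 128, 128, 99.0 and 170 CPM in control replicates 71, 72, 73 and 76. In mutant replicates 74, 75, 77, 78 and 79 the sum was 403, 621, 227, 259 and 311 CPM. All mutant libraries were above all control libraries, with replicates 75 and 74 the highest. Of the 7 stromal markers tested, 5 were higher in mutant cells by edgeR (6 at an unadjusted p under 0.05). Of all tested genes, 7.82% were higher and 31.4% had an unadjusted p under 0.05. *Pdgfrb*, named after its values were seen, went the other way, with 10.7 ± 3.77 and 7.51 ± 3.29 CPM. Its log2 fold change was −0.51 (adjusted p = 0.315, edgeR). *Col3a1*, the most abundant by the mean of all 9 libraries, had 15.3 ± 7.56 CPM (SD, n = 4) in controls and 83.1 ± 58.4 CPM (SD, n = 5) in mutants. In control cells *Foxd1*, named after its values were seen, led with 29.9 ± 4.41 CPM, against 44.6 ± 2.15 CPM in mutants. *Tbx18* was too low to be tested and had reads in 6 of 9 libraries. The 6 myeloid markers summed to 0.298, 5.30, 0.379 and 7.68 CPM in the control libraries and to 4.18, 33.1, 78.2, 28.8 and 28.6 CPM in the mutant libraries, in the same order of replicates. Mutant replicate 74 lay within the control range. *Tyrobp* was the most abundant of them and the only 1 of 6 called by edgeR. All 6 had an unadjusted p under 0.05, with log2 fold changes from 2.21 to 3.68. *C1qa* and *Adgre1* had reads in 2 of 4 control libraries and *Ptprc* in 3.

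Markers of the committed nephron were lower in sum in the mutant libraries. The 8 genes summed to 471, 486, 567 and 313 CPM in control replicates 71, 72, 73 and 76. They summed to 264, 225, 347, 278 and 266 CPM in mutant replicates 74, 75, 77, 78 and 79. Control replicate 76 was the lowest control library and lay below mutant replicate 77. Of these 8 genes 2 were lower in mutant cells by edgeR (5 at an unadjusted p under 0.05). *Pax8*, the most abundant by the mean of all 9 libraries, had 182 ± 33.7 CPM (SD, n = 4) in controls and 181 ± 48.6 CPM (SD, n = 5) in mutants. The 2 lower genes, named after their values were seen, were *Wnt4*, the most abundant in controls (234 ± 81.0 and 68.7 ± 29.6 CPM, adjusted p = 0.0058), and *Lhx1* (5.51 ± 2.04 and 1.07 ± 0.294 CPM, adjusted p = 0.00102).

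Among podocyte markers, *Wt1* had 199 ± 17.0 CPM (SD, n = 4) in controls and 217 ± 31.1 CPM (SD, n = 5) in mutants, and *Nphs1* was too low to be tested. Of 5 podocyte markers tested, 0 passed and 2 had an unadjusted p under 0.05. These 2, named after their values were seen, went opposite ways: *Podxl* had 0.426 ± 0.446 and 1.43 ± 0.840 CPM (log2 fold change 1.74, adjusted p = 0.146, edgeR) and *Synpo* 2.08 ± 1.32 and 0.764 ± 0.504 CPM (−1.43, adjusted p = 0.103). Ureteric bud markers summed to 59.2 ± 9.32 and 46.4 ± 14.8 CPM, led by *Hoxb7*, with *Ret*, *Wnt9b* and *Gata3* too low to be tested. Of the 4 tested, 0 passed in edgeR and 3 had an unadjusted p under 0.05. These 3 did not share a direction. *Hoxb7* and *Wnt11* had log2 fold changes of −0.47 and −0.85 (adjusted p = 0.0646 and 0.0701, edgeR). *Calb1* had 0.356 ± 0.27 and 2.69 ± 4.68 CPM (log2 fold change 2.88, adjusted p = 0.154), with mutant replicate 77 the highest. *Wnt11* and *Calb1* were named after their values were seen. Proximal tubule markers summed to 4.24 ± 2.07 and 6.49 ± 4.89 CPM, led by *Lrp2*, and erythroid markers to 1.87 ± 0.588 and 1.94 ± 0.349 CPM, led by *Alas2*. Endothelial markers summed to 15.0 ± 1.08 and 12.3 ± 1.71 CPM, led by *Egfl7*, which fell from 11.6 ± 0.153 to 7.19 ± 0.804 CPM (adjusted p = 0.018, edgeR). *Pecam1*, named after its values were seen, rose from 0.248 ± 0.171 to 1.36 ± 1.04 CPM (adjusted p = 0.0469), and 2 others tested did not pass. *Cdh5* and *Tek* were too low to be tested, with means of 0.0106 and 0.125 CPM in control and 0.296 and 0.369 CPM in mutant libraries.

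Of the 10 genes, 9 had enough reads to be tested, and *Ccnd2* alone passed the threshold, an adjusted p under 0.05 in edgeR over 14990 tested genes. This is 1 of 9 tested members, or 11.1%, where 14.8% of all tested genes passed. As a count in 1 direction, 1 of 9 was higher, where 7.82% of all tested genes were, and 0 of 9 were lower, where 7.02% were. At an unadjusted p under 0.05 the count was also 1, where 31.4% of all tested genes passed. DESeq2 and limma-voom each called 1 member, *Ccnd2*, where they called 17.7% and 32.4% of all genes they tested. The median log2 fold change of the 9 was 0.34, from −0.23 to 0.79, and that of all tested genes was −0.0085, with an interquartile range from −0.32 to 0.28. A fitted value above 0 was found for 7 of 9 members and for 49.2% of all tested genes, and 2 of these 7 turned below 0 under an alternative, *Cdkn2b* without mutant replicate 75 and *Cdkn2d* with a surrogate variable.

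Levels of different genes were compared as CPM per kilobase of gene length. *Cdk4* was by far the most abundant member in control libraries, with 603 ± 84.0 CPM per kilobase (SD, n = 4), a level above 99.4% of tested genes. *Cdkn1c* followed with 132 ± 11.9, then *Cdkn2d* with 51.7 ± 6.79 and *Ccnd3* with 51.2 ± 2.44, whose ranges overlapped, and *Ccnd2* with 18.2 ± 1.61 CPM per kilobase. The remaining genes were all low: *Cdkn1b* had 1.52 ± 0.211, *Cdk6* 1.31 ± 0.255, *Cdkn2c* 1.21 ± 0.374 and *Cdkn2b* 0.846 ± 0.591 CPM per kilobase, each overlapping its neighbour in the order. *Cdkn2a* was at 0. In mutant libraries the order was the same from *Cdk4*, at 667 ± 64.9 CPM per kilobase (SD, n = 5), down to *Cdk6*, at 1.66 ± 0.377, and *Cdkn2b* stood above *Cdkn2c* with 1.47 ± 1.49 against 1.02 ± 0.297, ranges that overlapped. Each kinase and inhibitor family was thus led by 1 transcript in control cells. *Cdk4* made up 99.8% of the summed level of *Cdk4* and *Cdk6*, *Cdkn2d* 96.1% of that of the INK4 genes, and *Cdkn1c* 72.3% of that of the CIP/KIP genes.

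**Figure D1:**
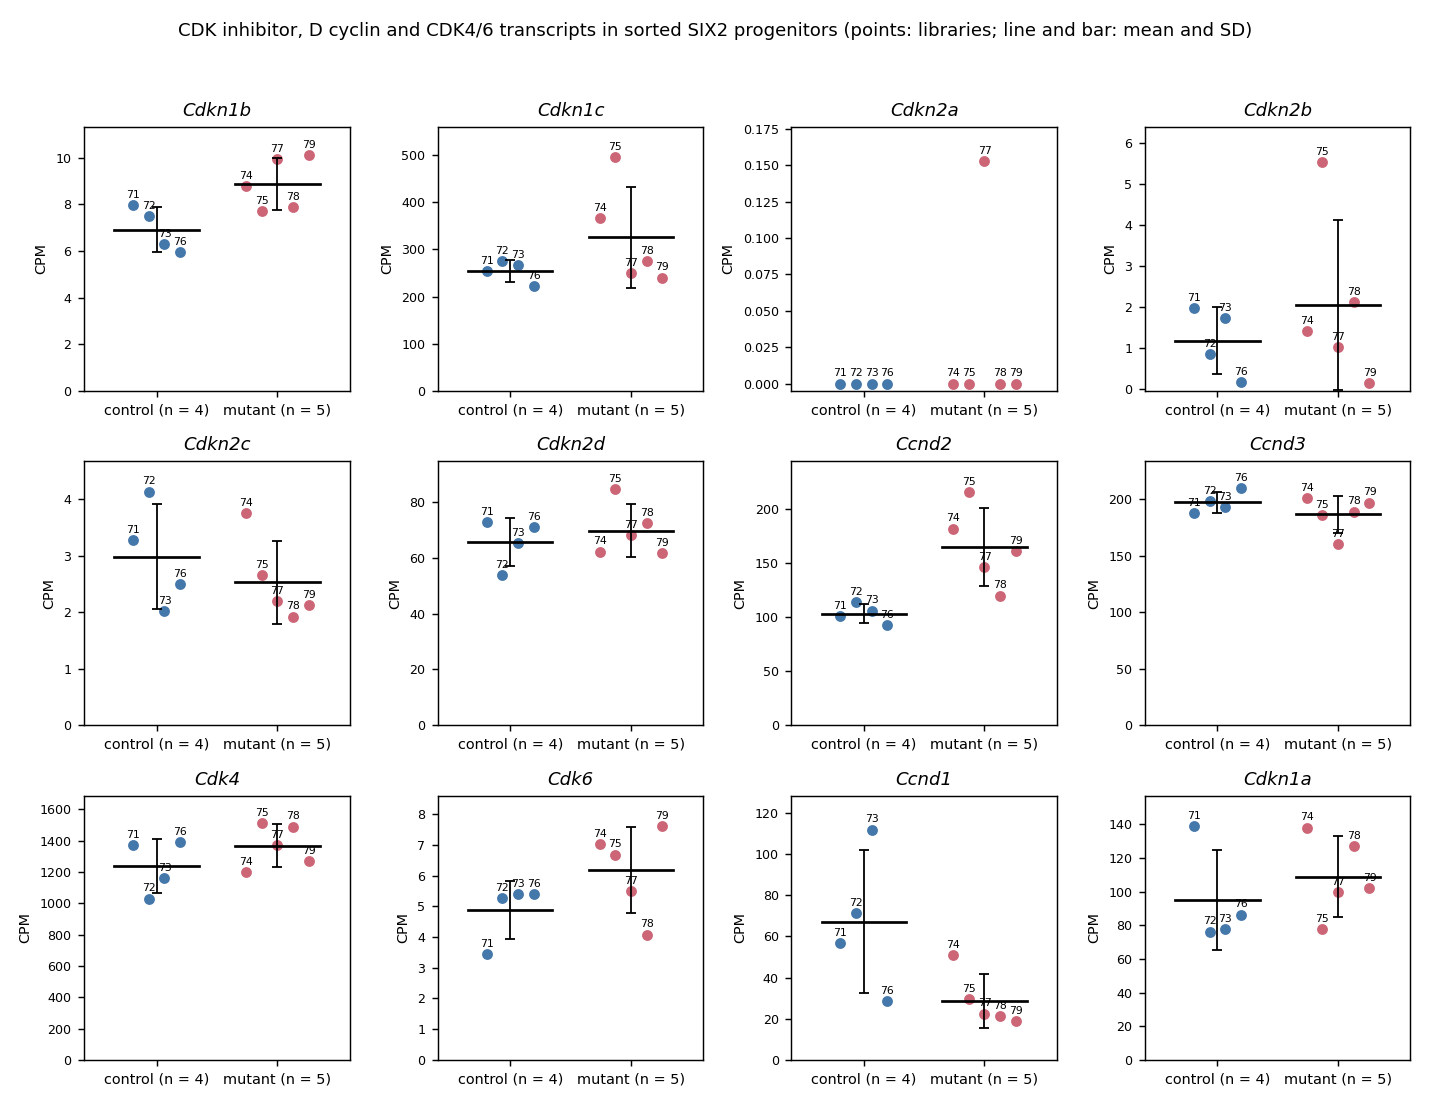
Normalized read counts (CPM, linear axes) of the 10 genes and of *Ccnd1* and *Cdkn1a* in 4 control and 5 mutant libraries. Points are libraries with their replicate numbers, lines are means and bars are SD (not drawn for *Cdkn2a*). The genotypes separate without overlap for *Ccnd2*, where the highest control library has 114 CPM and the lowest mutant library 120 CPM.

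Among the CIP/KIP inhibitors, *Cdkn1c* (p57, KIP2; chromosome 7, 143458350 to 143461050) was the most abundant. It had 254, 276, 266 and 223 CPM in control replicates 71, 72, 73 and 76. In mutant replicates 74, 75, 77, 78 and 79 it had 367, 496, 250, 275 and 240 CPM. Mutant replicates 74 and 75 were above all control libraries, and the other mutant libraries lay within the control range. The fitted log2 fold change was 0.35 (SE 0.19, 95% confidence interval −0.06 to 0.77) with an adjusted p of 0.232 from edgeR, and the 2-sided exact permutation test (126 arrangements of the libraries) gave p = 0.286. With mutant replicates 74 and 75 both left out, a choice made after the values were seen, the mutant mean was 255 ± 17.9 CPM (SD, n = 3) and the log2 fold change 0.0030. The libraries that held *Cdkn1c* high were also the 2 highest in stromal markers. Control replicate 76, the highest control library in stromal markers, was the lowest of all in *Cdkn1c*, and mutant replicates 77, 78 and 79 had stromal sums above all controls with *Cdkn1c* in the control range. The part of those cells was not tested. *Cdkn1c* shares 625 exonic bases with the antisense gene *Gm44732*, which is absent from the table. In bulk libraries, more cells of a type and more RNA per cell cannot be told apart.

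*Cdkn1b* (p27, KIP1; chromosome 6, 134920401 to 134925513), an inhibitor of CDK2 complexes that accumulates in resting cells, rested on 141 to 222 reads per library. Its control values were 7.97, 7.48, 6.28 and 5.95 CPM in replicates 71, 72, 73 and 76. Its mutant values were 8.78, 7.70, 9.95, 7.87 and 10.1 CPM in replicates 74, 75, 77, 78 and 79. Mutant replicates 75 and 78 fell below control replicate 71, so the genotypes overlapped. Its log2 fold change was 0.36 (SE 0.19, 95% confidence interval −0.05 to 0.77, adjusted p = 0.216, edgeR). The exact permutation test of this gene alone gave p = 0.0476, unadjusted and 1 of 13 such tests, for the 10 members, *Ccnd1*, *Cdkn1a* and *Uqcrq*, whose smallest possible p is 0.00794. *Cdkn1a* (p21), the p53-induced inhibitor of the family, ranged from 76.2 to 139 CPM in control and from 77.6 to 138 CPM in mutant libraries, with a log2 fold change of 0.20 (SE 0.20, adjusted p = 0.541, edgeR), and shares 273 exonic bases with *AC167363.2* on the opposite strand.

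Per kilobase, the CIP/KIP genes summed to 183 ± 18.2 CPM (SD, n = 4) in controls and 228 ± 52.4 CPM (SD, n = 5) in mutants. *Cdkn1c* held 72.3% ± 6.27 and 73% ± 7.37 of this sum, *Cdkn1a* 26.9% ± 6.27 and 26.1% ± 7.18, and *Cdkn1b* 0.828% ± 0.0527 and 0.907% ± 0.291. The makeup of the family was therefore alike in the genotype means, although mutant replicate 75 departed from it with 85.9% *Cdkn1c*.

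The INK4 genes were carried by *Cdkn2d* (p19, INK4D; chromosome 9, 21288463 to 21291209). It had 72.8, 53.7, 65.2 and 71 CPM in control and 62.2, 84.5, 68.0, 72.4 and 61.7 CPM in mutant libraries, in the order of replicates used above. Control and mutant values were interleaved. The log2 fold change was 0.09 (SE 0.13, 95% confidence interval −0.20 to 0.37, adjusted p = 0.694, edgeR), and a fit with 1 surrogate variable gave −0.039. *Cdkn2d* held 96.1% ± 1.37 of the INK4 sum per kilobase in control and 95.8% ± 1.92 in mutant libraries.

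*Cdkn2c* (p18, INK4C; chromosome 4, 109660876 to 109667189) had between 2.02 and 4.13 CPM in control and between 1.92 and 3.75 CPM in mutant libraries, from 39 to 106 reads. Its log2 fold change was −0.23 (SE 0.31), and edgeR gave an adjusted p of 0.644. *Cdkn2b* (p15, INK4B; chromosome 4, 89306289 to 89311032), known as a target of TGF-β signals, varied most among the 9 tested members, relative to its mean. It had 1.96, 0.857, 1.73 and 0.169 CPM in control and 1.41, 5.53, 1.02, 2.12 and 0.136 CPM in mutant libraries, which is 4 to 46 and 3 to 125 reads. Control replicate 76 and mutant replicate 79 were near 0, and mutant replicate 75 was the highest library of all. The log2 fold change of 0.79 had a 95% confidence interval from −0.87 to 2.46 (adjusted p = 0.521, edgeR). It was −0.011 without mutant replicate 75, and no change in either direction was called.

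*Cdkn2a* (chromosome 4, 89274471 to 89294653), the neighbour of *Cdkn2b* and the gene of p16 and ARF, was close to silent. It had 3 reads in mutant replicate 77 and 0 in every other library. A count of 0 allows up to 3 reads, or 0.117 to 0.148 CPM in these 8 libraries, counting error only. The exact permutation test gave p = 1.0 for it. Both products of the gene share its last exons, and the gene counts do not separate them.

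The D cyclins held the 1 member that passed the threshold. *Ccnd2* (chromosome 6, 127125779 to 127151048, minus strand), a cyclin induced by mitogens, had 101, 114, 106 and 92.4 CPM in control replicates 71, 72, 73 and 76. It had 182, 216, 146, 120 and 161 CPM in mutant replicates 74, 75, 77, 78 and 79. All 5 mutant libraries exceeded all 4 controls, with mutant replicate 75 the highest and mutant replicate 78 closest to the controls. The means were 103 ± 9.19 CPM (SD, n = 4) and 165 ± 36.4 CPM (SD, n = 5), a log2 fold change of 0.67 (SE 0.15, 95% confidence interval 0.34 to 1.01) with an adjusted p of 0.0131 from edgeR. This is 1.59-fold, with a confidence interval from 1.27-fold to 2.01-fold. The 2-sided exact permutation test gave p = 0.0159. Of the 9 tested members 1 had no overlap between genotypes, where 15.2% of all tested genes had none.

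The mutant libraries with the most *Ccnd2*, replicates 75 and 74, were again those with the largest stromal marker sums. Mutant replicate 79 followed them in both, with a stromal sum of 311 CPM and 161 CPM of *Ccnd2*. Mutant replicate 78 had more stromal markers than replicate 77 and less *Ccnd2*. Control replicate 76, with the largest control stromal sum (170 CPM), had the least *Ccnd2*. The part of stromal cells in the rise was not tested. The rise did not rest on mutant replicates 74 and 75 alone. With both left out, the mutant mean was 142 ± 20.7 CPM (SD, n = 3), the log2 fold change 0.46 and the adjusted p 0.0363 (edgeR). Without any 1 library, the log2 fold change lay between 0.56 and 0.77 and the adjusted p between 0.00767 and 0.0407. *Ccnd2* shares 368 exonic bases with the antisense gene *9330179D12Rik*, which had a mean of 12.4 reads, and 372 with the antisense gene *Gm43126*, which is absent from the table, and the libraries do not resolve strand.

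*Ccnd3* (chromosome 17, 47505051 to 47599691), the most abundant D cyclin per kilobase, had 188, 198, 193 and 210 CPM in control and 201, 186, 160, 189 and 197 CPM in mutant libraries. Mutant replicate 77 was the lowest and the other libraries overlapped. The fitted log2 fold change was −0.08 (SE 0.10, 95% confidence interval −0.30 to 0.14, adjusted p = 0.636, edgeR). An effect as large as that on *Ccnd2* in either direction lies outside this interval. *Ccnd3* shares 361 exonic bases with *Bysl* on the opposite strand.

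*Ccnd1* (chromosome 7, 144929931 to 144939869) had 56.6, 71.3, 112 and 28.7 CPM in control replicates 71, 72, 73 and 76. It had 50.9, 29.7, 22.5, 21.4 and 19.0 CPM in mutant replicates 74, 75, 77, 78 and 79. Control replicate 76 lay within the mutant range, below mutant replicates 74 and 75, so the genotypes overlapped. *Ccnd1* was lower in mutant cells, with a log2 fold change of −1.23 (SE 0.37, 95% confidence interval −2.03 to −0.43, adjusted p = 0.0438, edgeR) and p = 0.0476 in the exact permutation test. The direction was kept in 18 of 18 alternatives, but the call was not stable. It was lost when any 1 of control replicates 71, 72 and 73 or mutant replicates 75, 77, 78 and 79 was left out, with log2 fold changes from −1.30 to −0.86 and adjusted p between 0.0663 and 0.128, and kept without control replicate 76 or mutant replicate 74. It was also lost without a filter on low counts, with 1 surrogate variable and with Y-linked expression as a covariate (log2 fold change −1.23, −0.79 and −1.01, adjusted p = 0.172, 0.2 and 0.168). *Ccnd1* shares 1100 exonic bases with *LTO1* on the opposite strand. Control replicate 73, the highest in *Ccnd1*, was also the highest control library in committed nephron markers, and control replicate 76 the lowest in both. The mutant libraries did not follow this order: replicate 77, the highest of them in committed markers, had 22.5 CPM of *Ccnd1*, and replicate 74, the highest in *Ccnd1*, had a committed sum of 264 CPM, below replicates 77, 78 and 79. The part of committed cells in the *Ccnd1* values was not tested.

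Per kilobase, the 3 D cyclins summed to 87.3 ± 9.18 CPM (SD, n = 4) in controls and 85.1 ± 10.8 CPM (SD, n = 5) in mutants, a difference within the spread, while the makeup of the sum differed. The share of *Ccnd2* was 21.8%, 22.2%, 18.8% and 20.7% in control replicates 71, 72, 73 and 76. It was 32.7%, 40.3%, 35%, 27.8% and 33.5% in mutant replicates 74, 75, 77, 78 and 79. The lowest mutant share exceeded the highest control share. The mean share was 20.9% ± 1.5 (SD, n = 4) in controls and 33.9% ± 4.50 (SD, n = 5) in mutants. That of *Ccnd1* was 19.9% ± 8.47 and 8.83% ± 3.01, and that of *Ccnd3* 59.2% ± 7.82 and 57.3% ± 5.40. The ratio of *Ccnd2* to *Ccnd1* per kilobase was 1.18, 1.05, 0.62 and 2.11 in the control libraries and 2.35, 4.78, 4.24, 3.69 and 5.58 in the mutant libraries. It was above 1 in 3 of 4 control and 5 of 5 mutant libraries. With exon bases of GENCODE M21 as the length, a choice made after the data were seen, it was above 1 in 1 of 4 control libraries (0.898, 0.804, 0.473 and 1.61) and in 5 of 5 mutant libraries (1.79 to 4.26), so whether *Ccnd2* exceeds *Ccnd1* in control cells depends on the length used. The *Ccnd2* share was then at most 24.6% in control and at least 32.9% in mutant libraries. These shares and ratios are descriptions with no test.

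**Figure D2:**
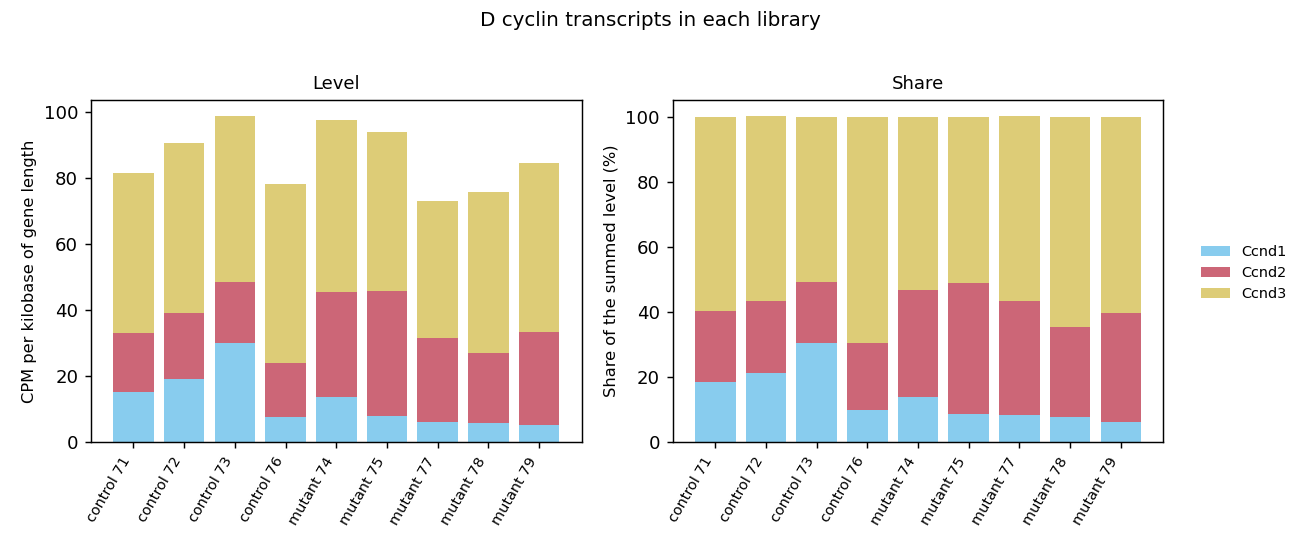
D cyclin transcripts in each library. Stacked bars give the level of *Ccnd1*, *Ccnd2* and *Ccnd3* in CPM per kilobase of gene length (left) and as a percentage of their sum (right). The sums overlap between genotypes, whereas the *Ccnd2* share is at most 22.2% in control and at least 27.8% in mutant libraries.

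The genes most like *Ccnd2* over the 9 libraries, by the root mean square difference of centred log2 values, were *Pqlc1* (0.112), *Slmo1* (0.132) and *Arhgap24* (0.142), out of 9348 tested genes that averaged 10 CPM or more. Their log2 fold changes were 0.56, 0.60 and 0.70, with adjusted p-values of 0.0502, 0.0267 and 0.0119 from edgeR. The likeness includes the genotype difference, so these values follow from how the genes were chosen and are not separate evidence.

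Of the kinases, *Cdk4* (chromosome 10, 127063534 to 127067920) had 1370, 1030, 1160 and 1390 CPM in control and 1200, 1510, 1370, 1490 and 1270 CPM in mutant libraries. Control replicates 72 and 73 were the lowest, and the genotypes overlapped. Its log2 fold change was 0.14 (SE 0.13, 95% confidence interval −0.12 to 0.41, adjusted p = 0.463, edgeR). *Cdk4* shares 641 exonic bases with *Tspan31* on the opposite strand, which had a mean of 4983 reads. *Cdk6* (chromosome 5, 3343893 to 3523218) was scarce. It had 3.45, 5.26, 5.39 and 5.40 CPM in control and 7.03, 6.69, 5.51, 4.08 and 7.62 CPM in mutant libraries, from 81 to 168 reads. All mutant libraries but replicate 78 were above every control library. The log2 fold change was 0.34 (SE 0.24, 95% confidence interval −0.18 to 0.87, adjusted p = 0.364, edgeR). It shares 368 exonic bases with the antisense gene *Gm17590* (a mean of 0.1 reads) and overlaps *Gm42435* with no exonic base in common.

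Set against the summed level of *Cdk4* and *Cdk6* per kilobase in the same library, the INK4 genes amounted to 8.91% ± 0.428 (SD, n = 4) in controls and 8.57% ± 0.686 (SD, n = 5) in mutants. The CIP/KIP genes amounted to 30.8% ± 5.25 and 34.2% ± 7.96, and the D cyclins to 14.8% ± 3.37 and 12.9% ± 2.45. All of these ratios of transcripts overlapped between genotypes. As CPM without division by length, the INK4 genes amounted to 5.63% in controls and 5.40% in mutants. The CIP/KIP genes then amounted to 29.1% and 32.4%, and the D cyclins to 30.3% and 28.0%.

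The rest of the pathway was described from 8 lists that hold 104 genes, *Ccnd1* and *Cdkn1a* included, of which 102 were tested and 21 passed the threshold in edgeR, or 20.6%, where 14.8% of all tested genes passed. With 1 library left out this count lay between 5 and 28. It was 5 without control replicate 73, a share below the 6.85% of all tested genes that passed in that fit. It was 9 without control replicate 71, control replicate 72 or mutant replicate 78, where 8.88%, 8.36% and 9.0% of all tested genes passed. It was 28 without mutant replicate 74, where 21.2% did. In the CDK2 module and the CDK-activating kinase, 0 of 8 genes passed (0 at an unadjusted p under 0.05, 0 with DESeq2 and 1 with limma-voom). *Ccna2*, the most abundant, had 180 ± 20.3 CPM (SD, n = 4) in controls and 183 ± 21.4 CPM (SD, n = 5) in mutants, and *Ccne1* a log2 fold change of 0.25. Among 15 genes of ubiquitin ligases for CDK inhibitors and cyclins, 0 passed (2 at an unadjusted p under 0.05, and 1 with DESeq2, with limma-voom or without mutant replicate 74). *Skp2*, the receptor that marks p27 for degradation, had a log2 fold change of −0.14 (adjusted p = 0.426, edgeR), and *Fbxo4*, an F-box gene assigned to D cyclins, of 0.44 (adjusted p = 0.0706). That of *Skp1a*, the most abundant gene of the list, was 0.12 (adjusted p = 0.582, edgeR).

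Of 18 genes of the RB, E2F and DREAM list, 1 was higher and 0 were lower, or 5.56% higher, where 7.82% of all tested genes were (7 at an unadjusted p under 0.05). The median log2 fold change was 0.19. *E2f4*, which acts mainly as a repressor with the RB relatives, rose from 107 ± 17.9 to 148 ± 21.8 CPM (SD; log2 fold change 0.46, adjusted p = 0.0486, edgeR). This call was lost without any 1 of control replicates 71, 72 and 73 and mutant replicates 77 and 78, where 0 genes of the list passed, and 4 and 5 passed without control replicate 76 and mutant replicate 74. With the Y-linked covariate 0 passed, with DESeq2 3 and with limma-voom 9. The activators *E2f1* and *E2f2* had log2 fold changes of −0.75 and −0.75, with adjusted p-values of 0.0596 and 0.0626. That of *Tfdp1*, the most abundant gene of the list, was −0.076 (adjusted p = 0.671, edgeR).

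Of 18 E2F-driven genes of the G1/S transition, 9 were lower, 0 higher and 9 not called in edgeR, or 50% lower, where 7.02% of all tested genes were lower. The median log2 fold change was −0.38, and 17 of 18 had a fitted value below 0. *Tk1*, the salvage kinase for thymidine, fell from 75 ± 1.04 to 52.4 ± 4.25 CPM (SD; log2 fold change −0.52, adjusted p = 0.00748, edgeR). *Cdc6*, a loader of the replicative helicase, fell from 45.1 ± 3.21 to 29.5 ± 3.88 CPM (−0.61, adjusted p = 0.00952). The helicase subunits *Mcm5* and *Mcm3* fell by 0.73 and 0.46 on the log2 scale (adjusted p = 0.0155 and 0.0214). *Mcm6*, the most abundant gene of the list, had a log2 fold change of −0.16 (adjusted p = 0.403). The count of 9 was 3, 2, 5 and 4 without control replicate 72, control replicate 73, mutant replicate 75 and mutant replicate 78, and 4 without mutant replicates 74 and 75 together. The genes of the list summed to between 2510 and 2930 CPM in mutant libraries and to between 2890 and 3450 CPM in control libraries, where replicate 71 was the lowest and the others stood above all mutant libraries. The lower committed markers and higher stromal markers moved with these genes across genotypes, and their part was not tested.

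Of 16 genes around Polycomb complexes, which hold the *Cdkn2a* and *Cdkn2b* locus silent in many embryonic cells, and including the opposing demethylase *Kdm6b*, 2 were higher and 0 lower, or 12.5% higher, where 7.82% of all tested genes were. The median log2 fold change was 0.0053. The higher genes were *Rnf2* and *Ezh1*. *Rnf2*, the ubiquitin ligase of Polycomb repressive complex 1, had a log2 fold change of 0.67 (adjusted p = 0.0336, edgeR). *Ezh1*, a methyltransferase of complex 2, had 0.50 (adjusted p = 0.0214, edgeR). Mutant replicate 74 lay within the control range for both genes, with 187 CPM of *Rnf2* and 135 CPM of *Ezh1*. The count was 0 without any 1 of control replicates 71 and 73 and mutant replicates 77 and 78, and 1 without control replicate 72 or mutant replicate 75. It was 1 with the Y-linked covariate and 4 with limma-voom. Genes for transcriptional regulators of CDK inhibitors had 5 higher and 0 lower of 16, or 31.2% higher, where 7.82% of all tested genes were. *Foxo1* and *Foxo3*, activators of *Cdkn1b*, had log2 fold changes of 0.52 and 0.55 (adjusted p = 0.0295 and 0.0272, edgeR). *Dmtf1*, an activator of ARF, had 0.55 (adjusted p = 0.00874) and *Smad2*, which carries TGF-β signals, 0.58 (adjusted p = 0.0345). *Id2*, the most abundant gene of the list, had 0.11 (adjusted p = 0.58, edgeR). The count of 5 was 1 without control replicate 71 or 73. This share of the list lay below the 8.88% and 6.85% of all tested genes that passed in those fits. Without mutant replicate 79 the count was 2, or 12.5%, where 11.7% of all tested genes passed. It was 3 without control replicate 72 or mutant replicates 75, 77 or 78, a larger share than that of all tested genes in each fit.

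Around *Cdkn1c*, 11 genes of its imprinted domain and flanks were listed and 9 tested, of which 2 were higher and 1 lower, together 33.3%, where 14.8% of all tested genes passed. *Phlda2*, imprinted like *Cdkn1c*, rose from 1.38 ± 0.254 to 4.66 ± 2.24 CPM (SD; log2 fold change 1.75, adjusted p = 0.0163, edgeR), and *Cars*, a tRNA synthetase gene, from 84.5 ± 14.6 to 150 ± 29.1 CPM (0.83, adjusted p = 0.00571). Mutant replicate 79 had 1.23 CPM of *Phlda2*, within the control range of 1.14 to 1.71 CPM. *Tssc4* fell by 0.42 on the log2 scale (adjusted p = 0.0314, edgeR). *Cd81*, the most abundant, had a log2 fold change of 0.31 (adjusted p = 0.14). The count of 3 was 1 without control replicate 71 and with the Y-linked covariate, and 6 with limma-voom. The domain's genes did not share a direction.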

How the data were processed

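RNA of cells sorted at E18.5 was sequenced in 4 control and 5 mutant libraries. Per the labels, cDNA was amplified from little input with poly(A) selection and no strand. The submitters' processing notes name STAR, DESeq2 and mm10. The deposited table holds counts of reads per gene by the authors, which were used here. Its FPKM columns, and the authors' normalized signal per genotype, were not used. Its log2 fold change column and the p-value columns hold the authors' own comparison and were not used. Its gene lengths were used for levels per kilobase, and some identifiers belong to other genes, those of *Ccnd1*, *Cdkn2b* and *Cdkn2d* among them, so genes were matched by symbol.

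Counts were compared in R 4.3.3 with edgeR 4.0.16 (filterByExpr, TMM, robust quasi-likelihood test, Benjamini-Hochberg adjustment over 14990 genes, threshold 0.05). Standard errors are the log2 fold change over the square root of F. Exact permutation tests were 2-sided on log2(CPM + 1), with 0.1 in place of 1 as an alternative. The code was tested on simulated data. Members and lists were chosen with earlier results of these data known. Named are all members, *Ccnd1*, *Cdkn1a*, *Uqcrq*, genes among the 4 smallest p-values and the most abundant gene of each pathway list, the gene of each marker list with the highest mean, the 3 genes most like *Ccnd2*, and genes overlapping members. The sum of the podocyte marker list is not reported here. Markers untested or without reads in some libraries are named too, as are markers said to be named after their values were seen. Alternatives were DESeq2 1.42.0, upper-quartile and RLE factors, other filters (at least 1 count in any library, at least 10 in every library), limma-voom with quality weights (limma 3.58.1), 1 surrogate variable (sva 3.50.0), a Y-linked covariate, and each library left out. Leaving out mutant replicates 74 and 75 together, and exon bases of GENCODE M21 (GRCm38) as length, were added after the data were seen. Figures were made with matplotlib 3.10.9.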

Additional observations from a re-analysis of the deposited data

Results flagged for a closer look

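The libraries of a genotype were compared for 158 sets of values, and in 12 of them 1 library was set apart by a gap beyond a limit that chance passes about 1 time in 20, or 7.9 times in 158. Shares of 1 family move together and some sets hold the same reads, so the flags are not independent of each other. Mutant replicate 75 accounted for 4 of the 12 flagged sets. It was high for *Cd81* (707 CPM, the other mutant libraries 481 to 528), for *Slmo1* (29.3 CPM, the others 19.2 to 22.0) and for the *Cdkn1c* share of the CIP/KIP genes (85.9%, the others 67.6% to 71.9%), and low for the *Cdkn1a* share (13.6%, the others 27.3% to 31.6%).

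Control replicate 71 was low for *Cdk6* (3.45 CPM, the other control libraries 5.26 to 5.40) and high for *Cdkn1a* (139 CPM, the others 76.2 to 86.3). Control replicate 72 was high for *Foxo1* (43.4 CPM, the others 32.0 to 33.7), and control replicate 76 for the sum of nephron progenitor markers (2520 CPM, the others 2060 to 2100). Mutant replicate 74 was high for the *Cdkn2c* share of the INK4 genes (2.95%, the others 1.31% to 1.74%), and mutant replicate 78 for *Dmtf1* (170 CPM, the others 140 to 148). Mutant replicate 77 alone held *Cdkn2a* reads, at 0.153 CPM and 0.309% of the INK4 sum, which rests on 3 reads.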

How the results depend on the processing

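*Ccnd2* kept its direction and its call in all 18 alternatives (log2 fold change 0.46 to 0.77, adjusted p 0.000775 to 0.0407), and it was the 1 member called in each of them. *Ccnd1* kept its direction in 18 of 18 and passed in 8 (log2 fold change −1.70 to −0.79, adjusted p 0.00942 to 0.2). The log2 fold change of *Cdkn2b* ranged from −0.011 (without mutant replicate 75) to 1.15 (without control replicate 71) with 1 library left out and turned to −0.11 without mutant replicates 74 and 75 together, and that of *Cdkn2d* to −0.039 with 1 surrogate variable; the cause was not tested. Limma-voom with quality weights called 4858 genes and 40 pathway list genes, against 2225 and 21. With 1 library left out, between 1046 and 3136 genes and between 5 and 28 pathway list genes were called, where fewer libraries were fitted. As CPM without division by length, the *Ccnd2* share of D cyclins was 28.2% in control and 43.1% in mutant libraries, the *Cdkn2d* share in control 93.9%, and the *Cdk4* share 99.6% and 99.5%, since the genes differ in length. A pseudocount of 0.1 CPM moved no exact test of a member across 0.05. With exon bases of GENCODE M21 as the length, a choice made after the data were seen, *Cdk6* moved from place 7 to 9 in the order of levels, *Ccnd3* had 22.5 and *Cdk4* 381 CPM per kilobase in control libraries, against 51.2 and 603, and the shares in control and mutant libraries were 23.27% and 38.87% for *Ccnd2*, 81.66% and 82.09% for *Cdkn1c*, and 99.91% and 99.89% for *Cdk4*. No paired analysis was possible because the labels give no litter or other link between control and mutant libraries. *Cdkn2a* had too few reads to be tested.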
